A study of Homo sapiens with 8 samples.

Results

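The genes that encode the proteins of the cytosolic ribosome, together with their annotated paralogs, were followed in SW480 cells with and without SPOCK1 overexpression. Members were chosen by symbol and annotation alone: protein-coding genes outside the Y chromosome named RPL or RPS with a number, with the endings A, X, L, AL or L1 allowed, and RPLP0, RPLP1, RPLP2 and RPSA. This gave 85 of the 58735 genes in the count table, 53 of the large and 32 of the small subunit, paralogs included. SW480 is a human colorectal adenocarcinoma line. Every culture was infected with lentivirus and selected with puromycin. The vector control group has 4 libraries, called control 1 to 4. The SPOCK1 overexpression group (4 libraries, SPOCK1 1 to 4) carried SPOCK1 with a FLAG tag and was selected until overexpression was seen by Western blot. SPOCK1, or testican-1, is a proteoglycan that cells release into the matrix around them. Nothing in the labels ties the 4 libraries of a group to separate cultures or infections, so a p-value covers no more than library-to-library spread, part or all of which may be technical. Should a group stem from 1 selected population, that population's own traits and an effect of SPOCK1 cannot be told apart.

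A cytosolic ribosome holds a single copy of almost every ribosomal protein, and the acidic stalk proteins RPLP1 and RPLP2 are the exception. Most of the messenger RNAs begin with a C followed by an unbroken run of pyrimidines, the terminal oligopyrimidine tract, through which mTOR and LARP1 set how much of them is translated. Rapidly dividing colon cancer cells spend a large part of their messenger RNA on this family, and free RPL5 and RPL11, bound to 5S ribosomal RNA, are known to restrain MDM2 when ribosome assembly is disturbed.

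Start sites of several paralogs and main genes are shown because some of the pairs differ in this tract, with RPLP0 as a further example. RPL10 and RPL10L are left out, and RPL3, RPL7L1 and RPL39 stand without their partners. Each line holds 30 bases of the transcribed strand, from 10 bases before the start site, taken from RefSeq (GRCh38.p14). Capitals mark the run of C and T that begins with a C at the start base.
RPL22 (chr1:6199576-6199605, minus strand): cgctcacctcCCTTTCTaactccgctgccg
RPL22L1 (chr3:170870176-170870205, minus strand): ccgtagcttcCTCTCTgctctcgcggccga
RPL26 (chr17:8383174-8383203, minus strand): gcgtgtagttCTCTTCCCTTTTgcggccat
RPL26L1 (chr5:172958719-172958748, plus strand): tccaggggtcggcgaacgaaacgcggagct
RPL36A (chrX:101391001-101391030, plus strand): ctcgcggtttCTTTCTTTCCgcgccgatag
RPL36AL (chr14:49620607-49620636, minus strand): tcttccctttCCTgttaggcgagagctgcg
RPS27 (chr1:153990752-153990781, plus strand): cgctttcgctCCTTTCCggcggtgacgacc
RPS27L (chr15:63157458-63157487, minus strand): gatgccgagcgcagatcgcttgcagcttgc
RPL3 (chr22:39319604-39319633, minus strand): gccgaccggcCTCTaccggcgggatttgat
RPL7L1 (chr6:42879606-42879635, plus strand): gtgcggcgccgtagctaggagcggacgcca
RPLP0 (chr12:120201092-120201121, minus strand): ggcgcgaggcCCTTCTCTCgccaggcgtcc
RPL39 (chrX:119791611-119791640, minus strand): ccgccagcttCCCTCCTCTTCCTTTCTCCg

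The motif was read as a C at the start base followed by at least 4 further bases that are all C or T, on the transcribed strand only. It stood at the start of 43 of the 68 members with a RefSeq window (63.2%), against 696 of 14896 protein-coding genes (4.67%). The main genes RPL22, RPL26, RPL36A, RPS27 and RPL39 carry it, while RPL3 has a run of 4 bases and RPL10 starts on another base. Of the paralogs RPL22L1 carries it, RPL36AL has a run of 3 bases, and RPL26L1, RPS27L, RPL7L1 and RPL10L start on another base. A match describes the letters at the annotated start and shows no use of the tract in these cells. A member without a match can hold a run of C and T a few bases further on, as RPL10A and RPL4 do.

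Reads of SPOCK1 followed the labels, with 0 to 6 per control library and 6719 to 9712 per SPOCK1 library. Total counts lay between 35643585 and 42812951 per library. The colon epithelial markers summed to 12930 to 15830 CPM (counts scaled to library size) in controls and 14509 to 16201 CPM in SPOCK1 libraries, with 8 of 13 past the filter on low counts. Nearly all of that sum was KRT8, KRT18 and KRT19. The median log2 fold change of the 8 was -0.08, with 4 of the 8 above 0 (KRT8, KRT18, KRT19 and EPCAM). KRT20, CDX1, CDH17, LGALS4 and CEACAM5 did not pass the filter and had 2 to 19 counts over all libraries together. CDH1, which encodes E-cadherin, fell from 17.8 ± 1.3 to 11.2 ± 1.2 CPM (SD, n = 4; log2 fold change -0.67 ± 0.11, SE, edgeR adjusted p = 0.00537). VIL1, the microvillus protein villin, had 78.0 ± 3.4 and 64.8 ± 7.7 CPM (edgeR adjusted p = 0.197), and the groups did not overlap in these 2 of the 8. Fibroblast markers summed to 4.41 to 5.48 CPM and 4.50 to 5.22 CPM, leukocyte markers to 1.36 to 1.80 CPM and 0.970 to 1.88 CPM, and endothelial markers to 0.485 to 1.27 CPM and 0.855 to 1.23 CPM. DCN, LUM, CDH5 and KDR had 0 counts in every library.

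No ribosomal protein gene passed the test between the groups, and most leaned slightly towards higher values with SPOCK1. Of the 85 members 83 passed the filter. None of the 83 was called at an adjusted p under 0.05 (edgeR quasi-likelihood test, Benjamini-Hochberg over 15790 genes), nor by DESeq2 or limma-voom, while 1.04% of all genes tested were called. At an unadjusted p under 0.05 stood 7 of the 83, against 13.7% of all genes. In none of the 83 were the CPM of the groups free of overlap, against 8.23% of all genes. The log2 fold change was above 0 in 80 of 83 members, with a median of 0.14 (1.10-fold), where the median over all genes was -0.0042 and 49.2% were above 0. The 51 tested genes of the large subunit had a median of 0.14, and the 32 of the small subunit 0.12.

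**Figure D1:**
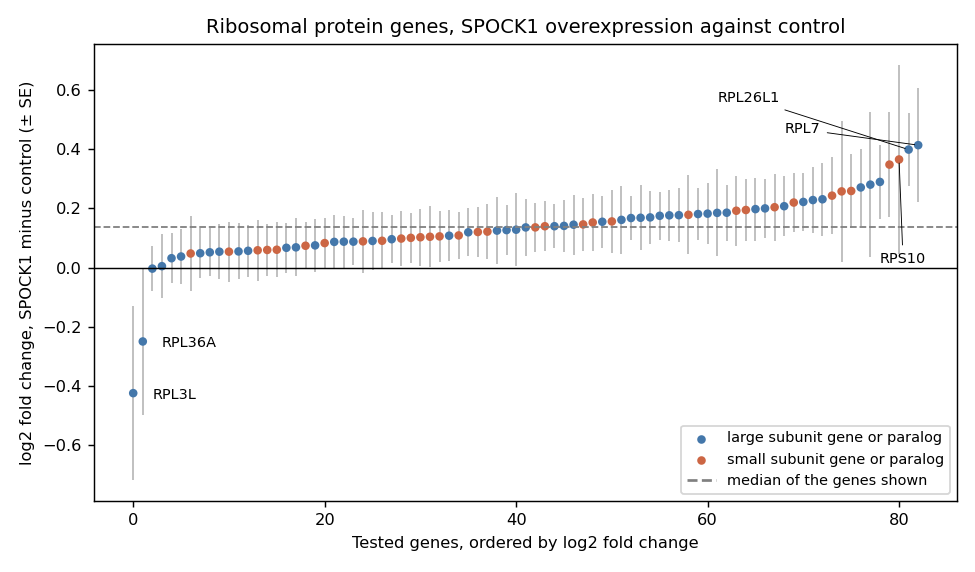
Log2 fold change of the 83 tested genes (SPOCK1 minus control, edgeR) in ascending order, with standard errors; blue points are large subunit genes and orange points small subunit genes. The values run from -0.42 for RPL3L to 0.41 for RPL7 around a dashed median of 0.14.

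The lean was strongest in 2 libraries. For each gene the log2 CPM of a library was set against the gene's mean over the 8 libraries. The median of these deviations over the 83 members was -0.26, -0.03, -0.01 and 0.05 in control 1 to 4, and 0.25, 0.08, -0.03 and -0.05 in SPOCK1 1 to 4. Control 1 was the lowest of the 8 libraries for 71 of the 83 genes, and SPOCK1 1 the highest for 71. Both held for 62 genes. Over all genes tested, control 1 was the lowest in 17.7% and SPOCK1 1 the highest in 21.4%. The medians of the other 6 libraries lay between -0.05 and 0.08, with controls and SPOCK1 libraries mixed.

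**Figure D2:**
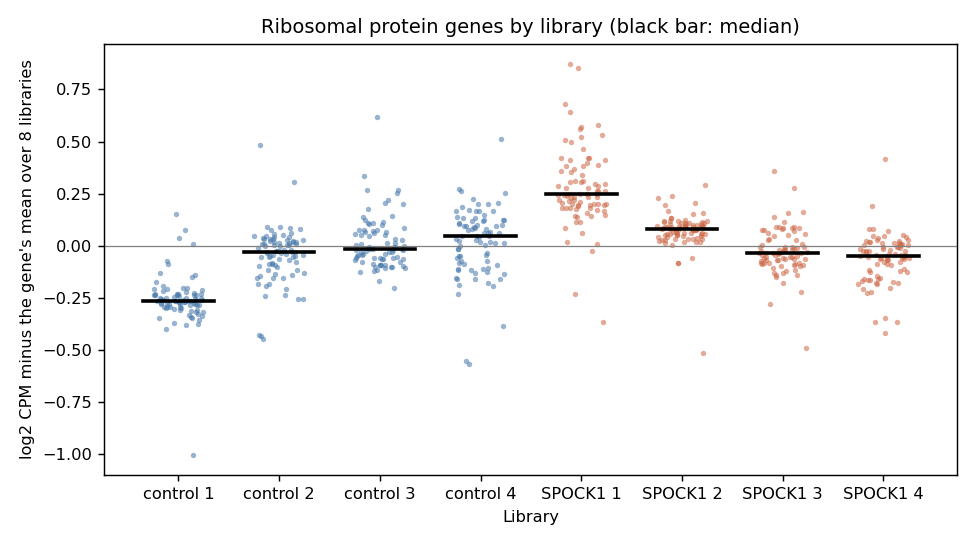
Each point is 1 of the 83 tested genes in 1 library, as its log2 CPM minus the gene's mean over the 8 libraries; black bars are medians. Control 1 sits at a median of -0.26 and SPOCK1 1 at 0.25, and the medians of the other 6 libraries lie between -0.05 and 0.08.

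Without control 1 the median log2 fold change was 0.07 and 68 of 83 genes were above 0. Without SPOCK1 1 it was 0.07 and 70 of 83. With libraries 1 of both groups left out, a choice made after seeing the data, the median was 0.0053 and 42 of 83 were above 0. With libraries 1 and 3 alone it was 0.25, and with libraries 2 and 4 alone 0.02. The lean of the full comparison was thus carried by libraries 1, and the 3 against 3 comparison of the others had about as many members above 0 as below. Libraries 1 were picked as the members' extremes, so a smaller median without them follows in part from that choice.

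As a share of all counts the members took 7.61%, 8.56%, 8.71% and 9.06% in control 1 to 4, and 10.02%, 8.96%, 8.46% and 8.30% in SPOCK1 1 to 4. The means were 8.49% ± 0.62 and 8.94% ± 0.78 (SD, n = 4 each), and the groups overlapped. Large subunit genes made up 5.20% ± 0.38 and 5.47% ± 0.47 of counts, and small subunit genes 3.29% ± 0.24 and 3.47% ± 0.30. In bulk RNA a higher share cannot be told apart from less RNA of other genes.

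Deviations also followed GC content in several libraries. Among the 77 members with a mean above 1000 counts, the contrast of control 1 with SPOCK1 1 took 74.6% of the variance between libraries, and a second component took 18.7%. Across these genes the first had a Spearman correlation of -0.46 with GC content and the second 0.54. Spearman correlations across the 83 genes between a library's deviation and GC content were -0.03, 0.39, -0.31 and 0.48 in control 1 to 4, and -0.48, -0.01, -0.41 and 0.46 in SPOCK1 1 to 4. The points of a library share its preparation and depth, and genes are not independent replicates. Over all genes tested these values were -0.18, 0.36, -0.21 and 0.42, and -0.32, 0.03, -0.35 and 0.42. SPOCK1 1 and libraries 3 of both groups were below 0 in the members and in all genes, and control 2 and libraries 4 were above. SPOCK1 2 was close to 0 in both, and control 1 was close to 0 in the members alone. The part of this trend in the differences between groups was not tested beyond the offsets. The median log2 fold change of the members was 0.12 with GC offsets and 0.098 with GC and length offsets.

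**Figure D3:**
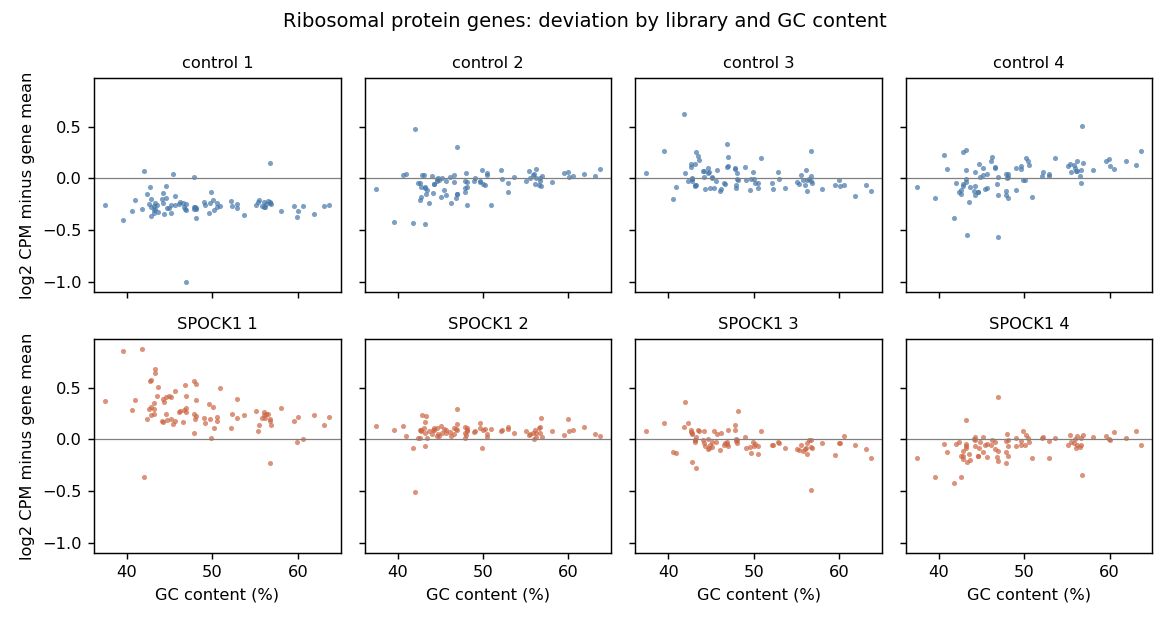
Deviation of each of the 83 genes from its own mean (log2 CPM, vertical) against GC content in percent (horizontal), 1 panel per library, controls above and SPOCK1 libraries below. SPOCK1 1 slopes down with a Spearman correlation of -0.48, and control 4 slopes up with 0.48.

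Ribosomal protein genes were less repeatable within groups than other well-counted genes. The median within-group SD of log2 CPM was 0.16 for the 71 members above a mean of 100 CPM, against 0.11 for the 2003 other tested genes above it, and 62 of the 71 exceeded that 0.11. This spread includes the shift of libraries 1 described above, and no value without them is given. Members that shift together are not separate observations. The largest SD among well-counted members was that of RPS24, a small subunit protein whose gene is mutated in Diamond-Blackfan anaemia, named here after its values were seen. RPS24 had 202.6, 183.7, 380.9 and 189.9 CPM in control 1 to 4, and 454.6, 234.5, 268.8 and 185.7 CPM in SPOCK1 1 to 4. Control 3 and SPOCK1 1 stood highest and the groups overlapped (log2 fold change 0.26 ± 0.24, SE; within-group SD 0.52). RPL7, a large subunit protein, varied in the same way, with 446.5, 438.6, 708.7 and 517.9 CPM in controls and 1064, 629.6, 660.3 and 457.8 CPM in SPOCK1 libraries. Its log2 fold change of 0.41 ± 0.19 (SE) was the highest of all members and had an adjusted p of 0.359 (edgeR). With libraries 1 left out of both groups it was 0.07.

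The 4 smallest p among positive members belonged to RPL26L1, RPL34, RPL11 and RPL14. RPL34, a large subunit protein, had 204.4, 218.7, 248.8 and 235.8 CPM in controls and 370.6, 263.2, 257.0 and 218.3 CPM in SPOCK1 libraries. Of the 4 SPOCK1 values 3 lay above every control, and SPOCK1 4 lay among the controls (log2 fold change 0.29 ± 0.12, SE, edgeR adjusted p = 0.320). RPL14, another large subunit protein, had 682.7, 725.8, 758.1 and 673.3 CPM in controls and 846.7, 802.1, 792.9 and 747.2 CPM in SPOCK1 libraries. It varied little, and control 3 alone reached into the SPOCK1 range (0.17 ± 0.07, SE, adjusted p = 0.328).

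RPL11 and RPL5, the partners in the 5S particle that binds MDM2, were both lowest in control 1 and highest in SPOCK1 1. RPL11 had 354.0, 378.5, 458.6 and 377.2 CPM in controls and 520.5, 468.6, 448.8 and 390.7 CPM in SPOCK1 libraries (log2 fold change 0.22 ± 0.10, SE, edgeR adjusted p = 0.326). RPL5 had 653.1, 730.4, 810.2 and 738.2 CPM, and 1011, 854.3, 830.1 and 688.8 CPM (0.21 ± 0.10, adjusted p = 0.387). The groups overlapped in both genes. CDKN1A, a cell cycle inhibitor, had 118.2 ± 10.0 CPM in controls and 102.0 ± 8.0 CPM with SPOCK1 (SD, n = 4), with an edgeR adjusted p of 0.286.

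The stalk of the large subunit, which recruits elongation factors, is built on RPLP0. RPLP0 had 2992, 3756, 3393 and 4061 CPM in controls and 4211, 3757, 3282 and 3642 CPM in SPOCK1 libraries. RPLP1 had 1342 ± 133 and 1406 ± 98 CPM, and RPLP2 951 ± 100 and 1017 ± 27 CPM (SD, n = 4). The log2 fold changes of the stalk genes lay between 0.07 and 0.10, with adjusted p between 0.645 and 0.805 (edgeR). RPSA, a small subunit protein also known as the laminin receptor precursor, had 2250, 2760, 2669 and 2983 CPM in controls and 3669, 3097, 2740 and 2908 CPM in SPOCK1 libraries. Its log2 fold change was 0.22 ± 0.10 (SE, edgeR adjusted p = 0.346), and SPOCK1 3 and 4 lay inside the control range.

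RPS6, the substrate of S6 kinase, had 946.6 ± 98.9 CPM in controls and 1052 ± 136 CPM with SPOCK1 (SD, n = 4). RPS4X, the copy of RPS4 on the X chromosome, had 1799 ± 157 and 1939 ± 114 CPM. RPS27A, which is made as a fusion with ubiquitin, had 597.8 ± 95.0 and 682.8 ± 116.6 CPM. The groups overlapped in each, and the adjusted p lay between 0.497 and 0.586 (edgeR). Only RPL3L, RPL36A and RPL23A had a log2 fold change below 0, at -0.42 ± 0.29, -0.25 ± 0.25 and -0.0033 ± 0.075 (SE). RPL3L and RPL36A were counted at a mean of 36.6 and 62.1 reads per library. RPL23A, a large subunit protein at the exit of the peptide tunnel, lay at 214.6 ± 14.3 and 214.1 ± 10.1 CPM (SD, n = 4).

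Paralogs were compared with their main genes as the log2 ratio of counts within a library, which no scaling between libraries can move. Of 8 pairs 6 had both genes past the filter. The ratio of RPL26L1 to RPL26, both forms of a large subunit protein, was 0.42, 0.29, 0.45 and 0.46 in control 1 to 4, and 0.64, 0.59, 0.79 and 0.52 in SPOCK1 1 to 4 (log2). Every SPOCK1 library lay above every control. The mean was 0.40 ± 0.08 in controls and 0.63 ± 0.12 with SPOCK1 (SD, n = 4). The difference of 0.23 had an exact two-sided permutation p of 0.0286, the smallest that 4 against 4 libraries can give, and 0.171 adjusted over the 6 pairs, so it did not pass the correction. With the counts of annotated pseudogenes added to each gene the difference was 0.15, with an adjusted exact permutation p of 0.229.

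Underneath this ratio both genes were highest in SPOCK1 1. RPL26L1 (chromosome 5, 172958729 to 172969771) had 38.0, 39.1, 46.2 and 40.8 CPM in controls and 67.5, 50.3, 56.6 and 41.7 CPM in SPOCK1 libraries. Its log2 fold change of 0.40 ± 0.12 (SE) had the smallest p of all members (edgeR unadjusted p = 0.00472, adjusted p = 0.152), and only SPOCK1 4 lay inside the control range. Without SPOCK1 4, the library closest to the controls, the edgeR adjusted p was 0.0268. Leaving out any other single library gave no call. With libraries 1 left out of both groups the adjusted p was 0.446 at a log2 fold change of 0.24. RPL26 (chromosome 17, 8377516 to 8383250), with 60.7% of its coding bases shared with another annotated gene, had 31.0 ± 2.4 and 34.6 ± 6.1 CPM (SD, n = 4; log2 fold change 0.16 ± 0.12, SE).

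None of the other 5 ratios passed the correction. RPL3L, the heart and skeletal muscle form of RPL3, was counted at 0.053% ± 0.008 of RPL3 in controls and 0.038% ± 0.008 with SPOCK1 (SD, n = 4). Its log2 ratio was -10.90 ± 0.23 and -11.37 ± 0.26 (exact permutation p = 0.0571), and SPOCK1 2 lay among the controls. RPL36AL, an intronless copy of RPL36A, exceeded its main gene in counts in every library, at a log2 ratio of 5.41 ± 0.21 in controls and 5.86 ± 0.37 with SPOCK1 (exact permutation p = 0.114). RPL36AL itself had 74.7 ± 3.2 and 84.3 ± 6.3 CPM.

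RPL7L1, a relative of RPL7, had a log2 ratio of -1.07 ± 0.35 and -1.31 ± 0.43, and RPS27L, a relative of RPS27, -4.76 ± 0.40 and -4.62 ± 0.13 (SD, n = 4). RPL22L1, which RPL22 is known to hold down, had -0.80 ± 0.07 and -0.69 ± 0.32. In SPOCK1 1 RPL22L1 reached 84.4% of the RPL22 counts, where the other 7 libraries gave 50.5% to 61.2%. Without SPOCK1 1 the difference turned from 0.10 to -0.04. For these 3 pairs the exact permutation p was between 0.429 and 0.714.

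**Figure D4:**
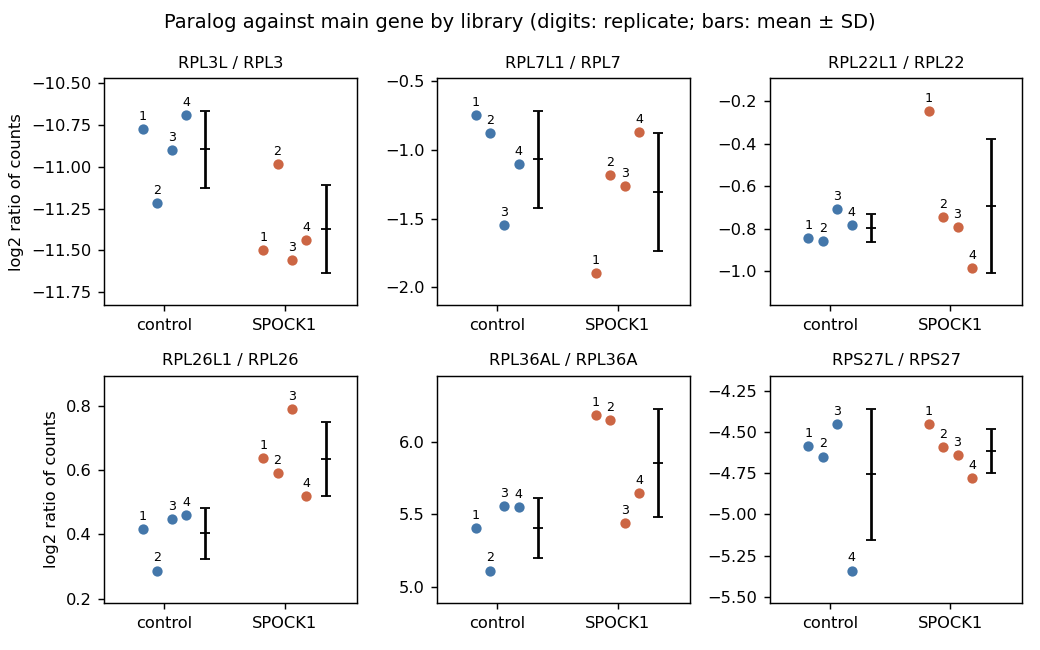
Log2 ratio of paralog to main gene counts in each library for the 6 pairs, with digits for the replicate and black bars for mean ± SD (n = 4); each panel has its own vertical scale. The groups are apart for RPL26L1 against RPL26 alone, with means of 0.40 and 0.63.

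The remaining paralogs were barely or not counted. RPL10L, known from testis, had 0 counts in every library, which allows up to 0.0855 CPM in the shallowest by 3 counts. RPL39L, another paralog known from testis, had 1 count in SPOCK1 2 and 0 in the other 7 libraries.

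Levels per kilobase of the deposited gene length spanned 0.35 to 1815 CPM per kb among the 83 tested members, with quartiles of 85.6, 249.9 and 503.7. RPS2, a small subunit protein beside the messenger RNA entry, was highest at 1815 CPM per kb. RPL41, a very short basic protein, was at 1514 and RPL7A of the large subunit at 1307 CPM per kb. RPS2 had 4290 ± 486 CPM in controls and 4471 ± 283 CPM with SPOCK1 (SD, n = 4), and RPL41 1535 ± 197 and 1760 ± 254 CPM. RPL7A had 2872 ± 298 and 2987 ± 226 CPM. The groups overlapped in these 3 genes, whose adjusted p lay between 0.435 and 0.818 (edgeR). RPS2 was highest by transcript length too, where RPL41 ranked 9.

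At the low end stood RPL3L at 0.35, RPL36A at 0.41, RPS10 at 0.47 and RPL17 at 0.84 CPM per kb. RPL36A, RPS10 and RPL17 encode core proteins of which each ribosome holds a copy, yet they were counted at a mean of 62.1, 41.4 and 79.0 reads per library. Their coding bases are shared with readthrough genes in GENCODE 29. The share was 67.3% in RPL36A (with RPL36A-HNRNPH2), 56.9% in RPS10 (with RPS10-NUDT3) and 98.2% in RPL17 (with RPL17-C18orf32), and these 3 readthrough genes had 0 counts in every library.

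More than 50% of the coding bases were shared with another gene, on either strand, in 8 members. Besides these 3 they included RPL26 (60.7%), RPL22 (59.4%), RPS23 (57.1%) and RPL30 (51.4%). RPS23 and RPL30 share theirs with genes on the opposite strand, ATG10 and AP003352.1. Their median level was 7.85 CPM per kb, against 308.0 in the other 69 tested members that are not paralogs. Taken library by library, the median of the 8 was 2.43% ± 0.16 of the median of the 69 (SD over 8 libraries), and 2.66% ± 0.20 with the median transcript length in place of the deposited length. Of the 10 lowest members 6 had more than 50% of their coding bases shared, 3 were paralogs, and the last was RPS15A with 36.9% shared. The handling of reads that fall on more than 1 gene is not given in the sources used here and its part in these levels was not tested. The counts of these genes, and the ratios of RPL36AL to RPL36A, RPL26L1 to RPL26 and RPL22L1 to RPL22, are therefore uncertain as levels.

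**Figure D5:**
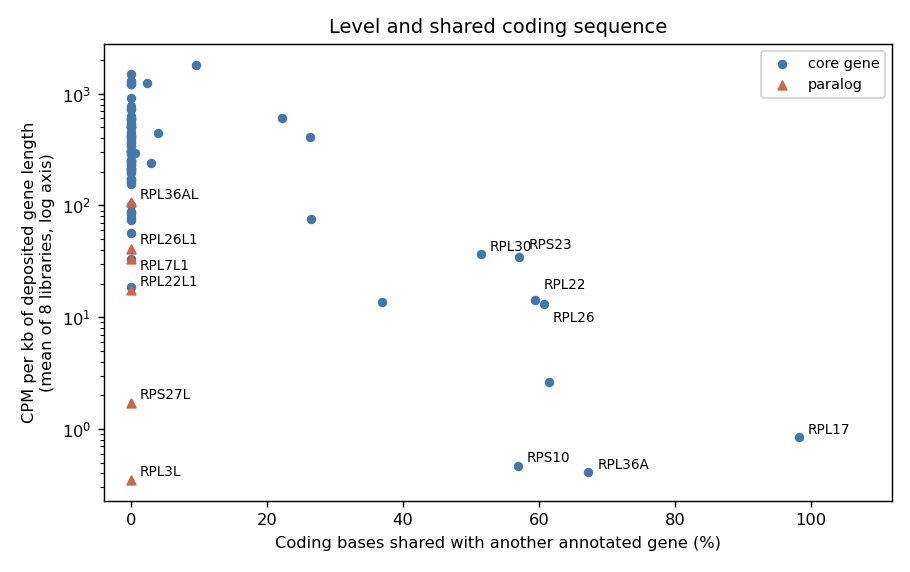
Level in CPM per kb of deposited length (mean of 8 libraries, log axis) against the percentage of coding bases shared with another annotated gene, for the 83 tested members; circles are core genes and triangles paralogs. The 8 members past 50% lie between 0.41 and 36.4 CPM per kb.

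Processed copies held part of the family's reads. In all, 1144 annotated pseudogenes were assigned by symbol to 77 of the 85 members, and they took 0.272% ± 0.021 of counts in controls and 0.291% ± 0.033 with SPOCK1 (SD, n = 4). In 3 members the pseudogenes were counted above the gene. RPL9 had a mean of 15991 reads and its pseudogenes 25306, mostly RPL9P9. RPS28 had 6213 reads and its pseudogenes 15408, all of them RPS28P7. RPS10 had 41.4 reads and its pseudogenes 190.5, and with these added its log2 fold change turned from 0.36 to -0.19. Reads of near-identical copies can be split between them, so levels of RPL9, RPS28 and RPS10 are uncertain.

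Other parts of the ribosome were not called either. FAU, the source of RPS30, had 478.4 ± 58.1 CPM in controls and 518.0 ± 51.4 CPM with SPOCK1 (SD, n = 4), and the scaffold protein RACK1 2587 ± 190 and 2687 ± 87 CPM.

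Genes that build or use ribosomes were listed in 8 groups of 126 genes, of which 124 were tested. None was called by edgeR, and 32 had an unadjusted p under 0.05, against 13.7% of all genes. DESeq2 called 8 of them among its 398 calls over the whole table, and limma-voom 0. Of 57 tested ribosome assembly factors 54 had a log2 fold change above 0, with a median of 0.19, and 21 had an unadjusted p under 0.05 (13.7% of all genes). The groups did not overlap in 13 of the 57 (8.23% of all genes). The median deviation of these factors was -0.10, -0.09, -0.07 and -0.13 in control 1 to 4, and 0.17, 0.09, 0.10 and 0.05 in SPOCK1 1 to 4. All 4 SPOCK1 libraries stood above all controls. The share of counts on ribosomal RNA genes, cytosolic and mitochondrial together, also kept the groups apart. It was 0.696% to 0.738% in controls and 0.560% to 0.670% in SPOCK1 libraries. The cytosolic genes were not summed alone, and the part of this share in the values above was not tested. With libraries 1 left out of both groups, 51 of 57 assembly factors were above 0 at a median of 0.17. Because libraries 1 were picked by the ribosomal proteins, list values in that setting cannot be set against those of the members.

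PNO1, which guides late steps of small subunit assembly, had 71.9, 73.4, 71.0 and 73.6 CPM in controls and 95.8, 97.5, 83.3 and 84.5 CPM in SPOCK1 libraries. Every SPOCK1 value was above every control (log2 fold change 0.32 ± 0.08, SE, edgeR adjusted p = 0.0743). DESeq2 called it at an adjusted p of 0.0133. NOP16, a nucleolar factor of the large subunit, had 68.1 ± 4.4 and 85.5 ± 7.0 CPM (SD, n = 4) with an adjusted p of 0.0791 by edgeR and 0.0172 by DESeq2. Among the 16 genes of RNA polymerase I the median was 0.04, and it ran from 0.02 without SPOCK1 3 to 0.11 without SPOCK1 4. POLR1E, a subunit of the enzyme, had 60.9 ± 4.1 and 75.1 ± 4.2 CPM (adjusted p = 0.0981 by edgeR and 0.0217 by DESeq2). PDCD2L, of the 6 dedicated chaperones, had 17.5 ± 1.5 and 21.0 ± 1.8 CPM (edgeR adjusted p = 0.295), and the chaperones had a median of 0.12.

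Other genes of translation listed from general knowledge as carrying the tract had a median log2 fold change of 0.05 over 16 tested of 17, with 13 above 0. The median was 0.09 without SPOCK1 4. A RefSeq window was at hand for 9 of the 17, and 7 of these held the motif. EEF1A1, the elongation factor that delivers aminoacyl-tRNA, had 10294, 9862, 11777 and 10267 CPM in controls and 15210, 12352, 12203 and 10624 CPM in SPOCK1 libraries (edgeR adjusted p = 0.277). SPOCK1 4 lay inside the control range. EEF1G, the gamma subunit of the exchange factor for EEF1A1, was listed at 0 in every library. The handling of reads on several genes is not given, so this 0 is not taken as absence of its RNA. All 11 snoRNA host RNAs, whose introns hold guides of ribosomal RNA modification, were above 0 with a median of 0.17. Without control 1 the median was 0.09, and without libraries 1 of both groups it was 0.07 with 8 of 11 above 0. SNHG1 among them had 42.9 ± 7.6 and 54.8 ± 10.9 CPM (SD, n = 4, edgeR adjusted p = 0.264). The 11 genes of mTOR and cap-binding control had a median of 0.05, which turned to -0.03 without SPOCK1 4. EIF4EBP1, an mTOR substrate that holds back EIF4E, had 161.9 ± 16.7 and 174.0 ± 12.1 CPM (edgeR adjusted p = 0.630).

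The motif at the annotated start base did not separate the members' differences by eye. The 43 tested members with the motif had a median log2 fold change of 0.12 with 42 above 0, and the 24 tested members with a window but no motif 0.14 with 24 above 0. Their median levels were 308.0 and 241.9 CPM per kb. Both groups hold the same libraries, and the difference was not tested. Members such as RPL10A and RPL4, with a run of C and T just past the annotated start, count as having no motif. The split therefore cannot tell members with a tract from members without.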

How the data were processed

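RNA was measured in 8 SW480 libraries prepared with the NEBNext Ultra kit, per the labels' protocols. The deposited values are raw read counts per gene, made by the authors. The submitters' processing notes list CASAVA, HISAT2 2.0.5 and featureCounts 1.5.0-p3. Not given in the sources used here are the build, the strand setting and the handling of reads on several genes. Start, end and strand of all 58735 genes match GENCODE 29 (GRCh38), whose coding exons gave the shared bases.

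The groups were compared on counts in edgeR 4.0.16 under R 4.3.3 (filterByExpr, minimum count 10, minimum total 15; TMM; glmQLFit and glmQLFTest; Benjamini-Hochberg over 15790 genes; 4 libraries against 4). DESeq2 1.42.0 and limma-voom 3.58.1, other scalings and filters, GC offsets, the replicate block and left-out libraries were alternatives. The fit was tested on simulated data. Of genes changed 1.5-fold, the smallest change tried, 71.6% were recovered, and 2.23% of calls were false. The simulation does not cover changes near the members' median of 1.10-fold. CPM use TMM-scaled library sizes. Paralog ratios added 0.5 to each count and were tested by exact two-sided permutation (SciPy 1.17.1). The permutation test planned for the summed share is not reported, and the share is given as a description. A count of 0 was read as up to 3 counts, for counting error only. The labels record no molecular identifiers, so reads are not taken as independent molecules.

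The members, gene lists and alternatives were chosen with earlier results of these data known. Named members were the tested paralog pairs, the 4 smallest p in each direction (only 3 members were negative), the 4 highest and 4 lowest levels per kb, and RPL5, RPL11, RPLP0, RPLP1, RPLP2, RPSA, RPS27A, RPS6 and RPS4X. Other genes named were FAU, RACK1 and, in most lists, the smallest p. Some genes under these rules are not reported here. RPS24, other members with shared coding bases or pseudogene counts, and EEF1G were named after their values were seen.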

Additional observations from a re-analysis of the deposited data

Results flagged for a closer look

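RPL7L1 in control 1 lay apart from the other controls, at 265.7 CPM against 238.5 to 242.0 CPM in control 2 to 4. Its gap to the nearest control was 0.870 of the range of the group, above Dixon's limit for groups of 4. In the same library most ribosomal protein genes had their lowest value. Chance sets apart about 1 in 20 groups, and this was the single such value in 84 groups examined.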

How the results depend on the processing

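The number of members called was 0 and stayed so except with no filter beyond 1 count, where it was 2 (RPL7 and RPL26L1), and without SPOCK1 4, where it was 1 (RPL26L1). Leaving out single libraries gave 0 to 1. Their median log2 fold change stayed above 0. It ran from 0.0053 with libraries 2, 3 and 4 (chosen after seeing the data) to 0.25 with libraries 1 and 3. The moves were smaller than the pooled within-group SD of the library medians (0.14). Libraries 1 hold the extreme medians in that SD, so it cannot judge a median taken without them. Genes called over the whole table were 165, and 398 by DESeq2, 399 with no filter, 387 with GC offsets, 503 with GC and length offsets, 8 with libraries 1 and 3 and 89 to 237 with a library left out. Pathway genes called were 8 by DESeq2, 7 with no filter, 10 and 13 with the offsets, 1 with libraries 2 and 4 and 0 to 3 with a library left out. The cause was not tested.

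Titles number the libraries of both groups alike. Correlations of deviations between equal numbers were -0.07, 0.03, 0.03 and 0.08, and not every library correlated best with its own number (control 3 with SPOCK1 1 at 0.16). With the replicate block the whole table had 115 calls and the members 0, with a median of 0.13.

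Signs of single members turned mostly near 0. RPL23A, just below 0 in the comparison of all libraries, turned to 0.0015 with RLE factors, 0.0018 with upper-quartile factors, 0.0015 by DESeq2, 2.4e-05 with no filter, 0.031 with libraries 1 and 3 and 0.019 with pseudogene counts added. With a library left out it ran from -0.045 to 0.024. With libraries 2 and 4 RPS2 was at -0.051, RPLP0 at -0.082, RPL3 at -0.026, RPL7A at -0.080 and RPLP1 at -0.054. With libraries 2, 3 and 4 they were at -0.045, -0.070, -0.046, -0.060 and -0.041, with RPL22L1 at -0.0067 and RPL26 at -0.0038. With pseudogene counts added RPS10 was at -0.19. With a library left out RPS2 ran from -0.0081 to 0.12, RPLP0 from -0.0054 to 0.14, RPL3 from -0.0057 to 0.081, RPL7A from -0.0072 to 0.11 and RPL22L1 from -0.0021 to 0.32. The difference in log2 ratio to the main gene then ran from -0.045 to 0.20 for RPL22L1 and from -0.054 to 0.24 for RPS27L.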
